A study of Rattus norvegicus with 4 samples.

Results

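Genes of the cell cycle and of DNA replication were examined in pancreatic RNA of rats fed diets low, adequate or high in iron. The 40 genes were taken from a written list by symbol and grouped by role. Of these, 39 had a probe on the array (50 probes in all), out of 19287 gene names and 30367 gene probes, and Mki67, the gene of the Ki-67 proliferation antigen, had none by the annotation used. Weanling male Sprague-Dawley rats were fed for 3 weeks on an iron-deficient diet (FeD, 5 ppm iron), an iron-adequate diet (FeA, 35 ppm) or an iron-overloaded diet (FeO, 20275 ppm). RNA from the pancreases of 6 rats per diet was combined into 1 pool. Each of the FeD and FeO pools was then hybridised against FeA on 2 arrays, the dyes being swapped on array 2. The arrays of a pair carry the same RNA, so the difference between them measures labelling and hybridisation, not rats, and no test of a diet effect can be made. Because the FeA pool serves both comparisons, FeD and FeO values are given side by side and were not correlated.

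A dividing cell licenses its replication origins in G1 by loading the MCM helicase, a ring of the subunits Mcm2 to Mcm7, enters S phase when cyclin-dependent kinases release E2F transcription factors from the retinoblastoma proteins, and copies its DNA with clamp, clamp loader and polymerases. Ribonucleotide reductase supplies the deoxyribonucleotides, and its small subunit holds a di-iron centre, which ties DNA synthesis to iron. In the pancreas of a young rat, acinar and islet cells still divide, and a piece of pancreas can also hold dividing cells of lymphoid tissue or gut.

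The median spot signal was 115 to 222.5 intensity units per channel over a local background of 50 to 87, and 61.9% to 71.5% of the 42877 gene spots per channel passed the scanner software's criterion for well above background. All 4 arrays lie on 1 slide of 1 scan. Acinar markers such as Cel, Pnlip and Cela1 were measured in all pools, and the summed processed signal of the list was 3900000 to 7260000 units per channel, as the tissue label has it. Values below are log2 ratios of diet over FeA, array 1 first, and a gene is called higher or lower where the mean of both arrays is at least 1.5-fold (0.585 on the log2 scale) with the same sign on both.

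In the FeO pool, the helicase genes Mcm3, Mcm4 and Mcm6 and the cyclin D2 gene were lower than in the FeA pool, and the cyclin D1 gene was higher. Of the 31 members above background, 4 were called lower (Mcm3, Mcm4, Ccnd2 and Mcm6) beside 1.64% of all 12477 genes, and 1 (Ccnd1) was called higher beside 2.78%. Without regard to size, 18 of the 31 were lower on both arrays, beside 26.1% of all genes, and 3 were higher on both, beside 26.8%. The median log2 ratio of the members was -0.16, with -0.21 on array 1 and -0.14 on array 2, against 0.01 over all genes. In the FeD pool no member reached 1.5-fold in either direction. There, 9 of 30 members were lower on both arrays and 5 were higher on both, beside 22.5% and 25.0% of all 11999 genes, and the genes called higher or lower made up 1.23% and 0.867%. The FeD median over the members was -0.10, against 0.01 over all genes.

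The members differed between the arrays of a comparison by a median of 0.22 in FeD and 0.19 in FeO (log2), about as all genes did (0.23 in both). The median size of the members' own mean ratios was 0.16 in FeD and 0.20 in FeO, beside 0.10 and 0.12 over all genes. A mean of 2 arrays varies less than their difference, so these sizes cannot be set directly against the differences. In bulk RNA fewer cells of a type and less RNA per cell cannot be told apart. Of the members that passed, 23 in FeD and 28 in FeO were above background in every channel. The other 3 in FeO (Aurka, Ccnb2 and Mcm6) passed through the FeA pool alone, so that a lower FeO value was favoured by the filter. Among the 28, 3 were called lower and 1 higher, beside 1.5% and 2.84% of all genes under that filter. On both arrays 15 were lower, beside 26.1% of all genes. The other 7 in FeD also passed through the FeA pool alone. Among the 23, 8 were lower on both arrays, beside 21.4% of all genes under the stricter filter. Higher on both were 5, beside 25.0% of all genes under the filter used above.

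**Figure D1:**
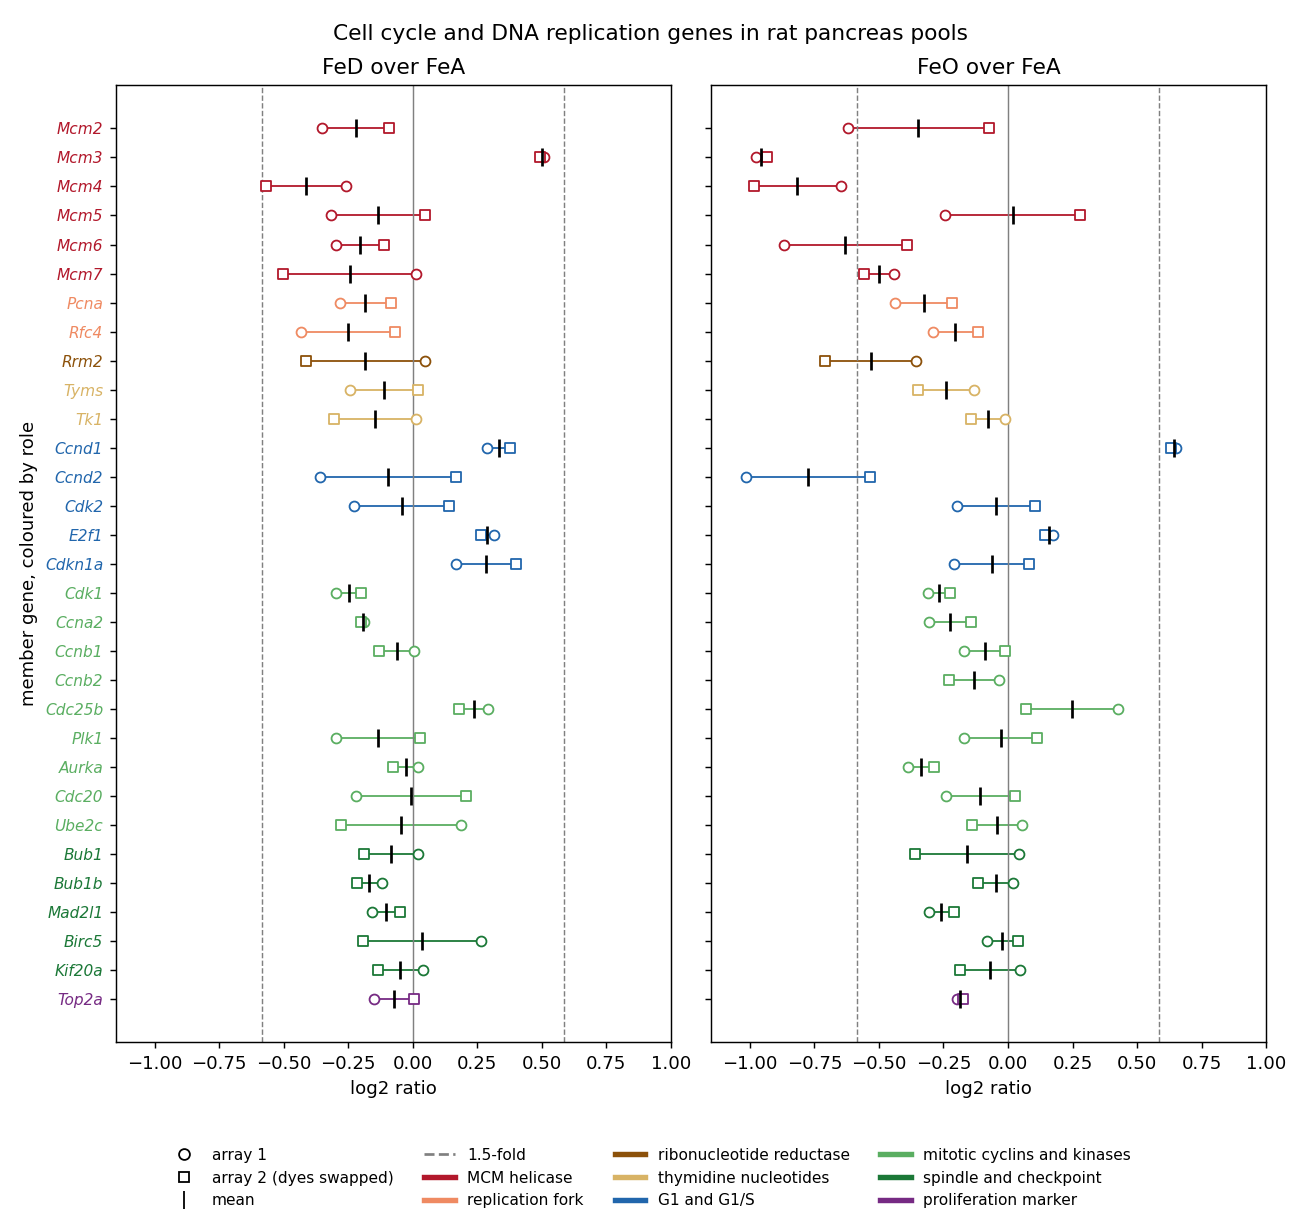
Log2 ratio of the FeD pool (left) and the FeO pool (right) over the FeA pool for each member above background, with array 1 as a circle, array 2 as a square, their mean as a black tick and 1.5-fold as dashed lines. In FeO the MCM genes other than Mcm5 lie left of 0 on both arrays, down to -0.96 for Mcm3, and Ccnd1 lies right at 0.64, whereas in FeD no mean reaches a dashed line.

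The plot of ratios by role begins with the helicase. In FeO its 6 subunits had a median of -0.57, 5 of 6 were lower on both arrays and 3 were called lower. Mcm3 gave a processed signal of 268 against 559 intensity units in FeA on array 1 and 239 against 714 on array 2. Both FeO channels lay below both FeA channels, and the log2 ratios were -0.98 and -0.93, a 1.94-fold lower level. A dimmer Mcm3 probe gave -0.83 and -0.44. Mcm4, which carries part of the helicase motor, had 174 against 390 units and 186 against 527 units. Its ratios were -0.65 and -0.98, 1.76-fold lower, and its other probe was not well above background. Mcm6 had 8.84 against 103 units and 15.7 against 92.7 units, and FeO failed to rise well above background on both arrays. The ratio of Mcm6 (-0.87 and -0.39) is thus a bound, at least 1.42-fold lower on the scale of the main processing. With no background subtraction its mean ratio was -0.43, and Mcm6 was not called. Mcm7 was 701 against 1179 and 846 against 1211 units, with ratios of -0.44 and -0.56, short of 1.5-fold. The remaining subunits were Mcm2, at -0.62 and -0.07 (its dimmer probe -0.13 and 0.08), and Mcm5, at -0.24 and 0.28, whose arrays disagreed in sign.

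In FeD the helicase genes did not move as a block. Their median was -0.21, but Mcm3 was the highest of all members, at 0.51 and 0.49, with signals of 1011 against 597 units on array 1 and 835 against 598 on array 2. Its dimmer probe pointed the same way, at 0.22 and 0.29. Mcm4 was the lowest member, at -0.26 and -0.57. Mcm2 (-0.35 and -0.09, its dimmer probe -0.18 and 0.08) and Mcm6 (-0.30 and -0.11) were lower on both arrays, and Mcm7 (0.01 and -0.50) and Mcm5 (-0.32 and 0.05) changed sign between arrays. Mcm3 alone among the 6 subunits was higher in FeD on both arrays.

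Promoters of the called members with an entry among the RefSeq promoter sequences (GRCr8, 250 bases before to 50 after each gene's start) are shown because MCM genes are textbook targets of E2F factors. Capitals mark, on either strand, the letters searched: E2F sites as TTTCCCGC, TTTGGCGC, TTTGCCGC or TTTCGCGC, the CCAAT box as CCAAT, and the CHR element of mitotic genes as TTTGAA.
Mcm3, chr9:30733697-30733996, minus strand: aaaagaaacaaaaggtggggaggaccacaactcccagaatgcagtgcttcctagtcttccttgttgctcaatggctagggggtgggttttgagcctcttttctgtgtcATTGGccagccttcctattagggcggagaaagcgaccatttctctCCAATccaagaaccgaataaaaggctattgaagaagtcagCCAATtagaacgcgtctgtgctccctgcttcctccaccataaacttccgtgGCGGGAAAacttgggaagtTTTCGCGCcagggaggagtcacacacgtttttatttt
Mcm6, chr13:42404303-42404602, minus strand: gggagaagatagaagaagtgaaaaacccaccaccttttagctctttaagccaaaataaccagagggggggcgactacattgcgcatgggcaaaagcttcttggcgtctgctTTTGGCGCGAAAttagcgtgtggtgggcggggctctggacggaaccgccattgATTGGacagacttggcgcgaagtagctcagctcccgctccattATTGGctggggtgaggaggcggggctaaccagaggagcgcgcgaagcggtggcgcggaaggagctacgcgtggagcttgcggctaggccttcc
Mcm3 holds E2F letters on the minus strand beginning 6 bases before the start and on the plus strand 13 bases after it, with CCAAT boxes 142, 97 and 57 bases before the start. In Mcm6 a pair of E2F matches overlaps on opposite strands 139 and 135 bases before the start, with CCAAT boxes 86 and 43 bases before it. The listed entries covered 30 of the 40 members, without Ccnd1, Ccnd2, E2f1, Mcm4, Rrm2, Rrm2b, Ccna2, Aurkb, Ube2c and Tpx2. The E2F letters were in 8 of these 30 promoters (26.7%) and in 2.25% of all 27457. All 5 MCM promoters with an entry held them, as did those of Cdk1, Pole2 and Tyms. The CHR letters were in 12 of 30 beside 18.1% of all, and CCAAT in 19 of 30 (63.3%) beside 37.7%.

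**Figure D2:**
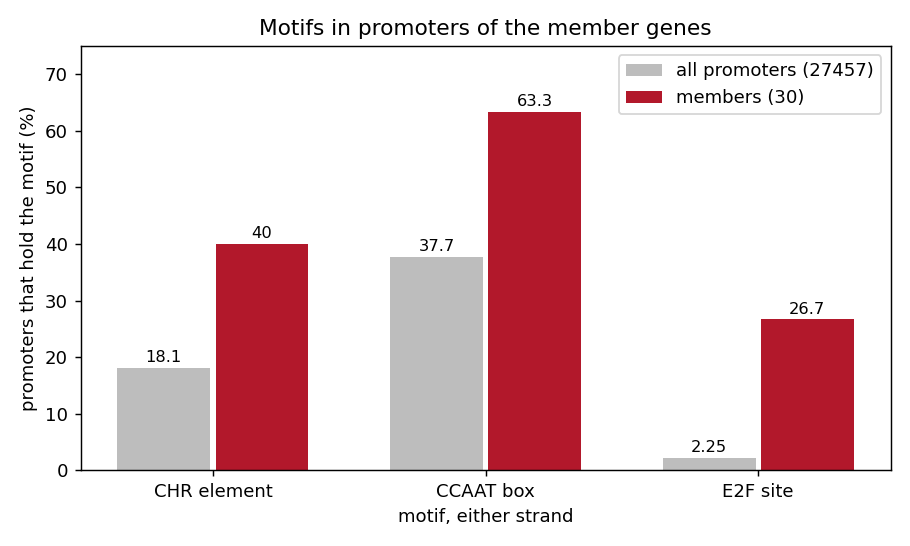
Share of promoters, in percent, that hold each motif on either strand, for the 30 members with a promoter sequence (red) and for all 27457 promoters (grey). The share with an E2F site is 26.7% among the members and 2.25% among all promoters, and the CHR element and CCAAT box are also held by a larger share of the members.

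Set against the ratios, the 7 members with E2F letters that were above background had an FeO median of -0.35, with 6 of 7 lower on both arrays, and the 17 members without them had -0.09, with 8 of 17. For the CHR letters, the FeO medians were -0.13 over the 9 members with them and -0.16 over the 15 without. In FeD, the 8 members with CHR letters had a median of -0.12, with 4 lower on both arrays, and the 15 without had -0.08, with 3 lower. Among all other genes, the 330 with E2F letters had an FeO median of -0.04 and 31.5% were lower on both arrays, against 0.0011 and 26.4% for the 9139 without. In FeD, the 7 members with E2F letters had a median of -0.20 and the 16 without had -0.07. The E2F group consists mostly of the MCM genes already described, and a match of letters is not evidence of a bound site.

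Around the fork, Pcna, the sliding clamp that holds the polymerase on DNA, gave 386 against 582 units and 452 against 617 units in FeO, with ratios of -0.44 and -0.22. In FeD its ratios were -0.28 and -0.08. Rfc4, a subunit of the clamp loader, was lower on both arrays in FeO (-0.29 and -0.12) and in FeD (-0.43 and -0.07). None of these reached 1.5-fold, and Pole2, of the leading strand polymerase, was not well above background.

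Ribonucleotide reductase, the iron enzyme of the group, could be followed through Rrm2 alone. Rrm2, the small subunit of dividing cells, gave 280 against 368 units and 218 against 498 units in FeO. Both FeO channels were below both FeA channels, and the ratios of -0.36 and -0.71 average -0.53, just short of 1.5-fold. A dimmer Rrm2 probe, above background on 1 of 2 arrays in each pool, gave -0.16 and -0.01. In FeD the arrays disagreed, with 371 against 370 units and 272 against 396 units, or 0.05 and -0.42, and the dimmer probe gave 0.13 and 0.07. Rrm1, the large catalytic subunit, and Rrm2b, the small subunit induced by p53, were not well above background in any channel, at 5.42 to 15.1 units, so nothing can be said of their levels. For thymidine nucleotides, Tyms, thymidylate synthase, was -0.13 and -0.35 in FeO, and Tk1, thymidine kinase, was -0.01 and -0.14. In FeD both genes changed sign between arrays.

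The G1 genes went in opposite directions in FeO. Ccnd2, cyclin D2, which partners Cdk4 and Cdk6, gave 1905 against 3950 units and 2597 against 4275 units. Its ratios were -1.01 and -0.53, 1.71-fold lower. Ccnd1, cyclin D1, which partners the same kinases, gave 2035 against 1228 units and 2791 against 1876 units. Its ratios of 0.65 and 0.63, 1.56-fold higher, differed less between arrays than those of any other called member. The cyclin D1 probe was uneven between hybridisations, since the same FeA pool gave 863 and 367 units on the FeD arrays. In FeD, Ccnd1 was 0.29 and 0.38, and Ccnd2 was -0.36 and 0.17. Other G1 members stayed under 1.5-fold. E2f1, an activating E2F factor, was 0.31 and 0.27 in FeD and 0.17 and 0.14 in FeO, although its dimmer probe gave 0.14 and 0.04 in FeD and -0.13 and -0.37 in FeO. Cdkn1a, the p21 inhibitor of cyclin-dependent kinases, was 38050 against 31510 and 49170 against 39550 units in FeD (0.17 and 0.40), and its dimmer probe gave -0.20 and 0.59. In FeO it was 38770 against 42850 and 62630 against 64430 units (-0.21 and 0.08), and the dimmer probe gave -0.31 and 0.97. Cdk2, the S phase kinase, changed sign between arrays in both comparisons, and Ccne1, cyclin E1, was not well above background.

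**Figure D3:**
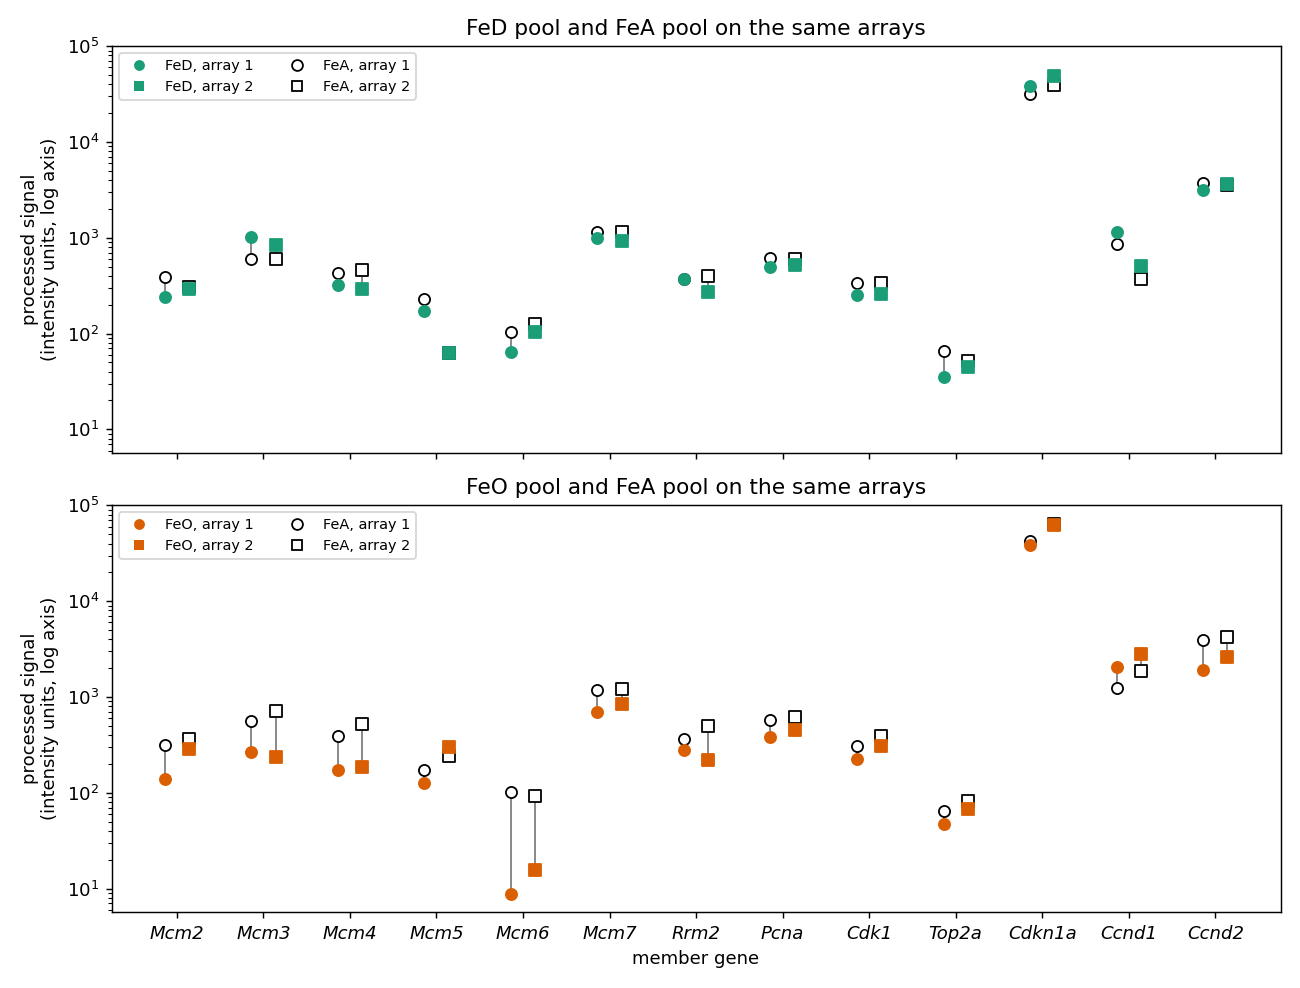
Processed signal in intensity units (log axis) of selected members in the FeD pool (top, green) and the FeO pool (bottom, orange), each beside the FeA pool (open) on the same array. Circles are array 1 and squares array 2. In the bottom panel both FeO points of Mcm2, Mcm3, Mcm4, Mcm6, Mcm7, Rrm2, Pcna, Cdk1 and Ccnd2 lie below both open FeA points. Those of Ccnd1 lie above both. In the top panel both FeD points of Mcm2, Mcm4, Mcm6, Mcm7, Pcna, Cdk1 and Top2a lie below both, and those of Mcm3 lie above both. The heights of different genes are not comparable because probes differ.

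No mitotic member was called in either comparison. Of 9 mitotic cyclins, kinases and anaphase factors above background in FeO, 5 were lower on both arrays and 1 was higher, with a median of -0.11. The shares of all genes were 26.1% and 26.8%. Aurka and Ccnb2, among the lower genes, passed through the FeA pool alone. Cdk1, the mitotic kinase, gave 227 against 310 units and 306 against 389 units (-0.31 and -0.22), and in FeD 255 against 339 and 260 against 335 units (-0.30 and -0.20). Cdk1 was thus lower on both arrays of each comparison, though short of 1.5-fold. All 4 arrays carry the same FeA pool, so the comparisons are not independent. Its partner Ccna2, cyclin A2, was -0.31 and -0.14 in FeO and -0.19 and -0.20 in FeD, but its dimmer probe gave 0.15 and -0.32 in FeD. Aurka, Aurora kinase A, was -0.39 and -0.29 in FeO, where the FeO pool was above background on 1 of 2 arrays, and 0.02 and -0.08 in FeD. Cdc25b, a phosphatase that activates Cdk1, was the mitotic member higher on both arrays in FeO (0.43 and 0.07) and in FeD (0.29 and 0.18), but its dimmer probe gave -0.16 and -0.82 in FeO and 0.67 and -0.43 in FeD. Ccnb1, Ccnb2, Plk1, Cdc20 and Ube2c, which drive entry into and exit from mitosis, averaged between -0.13 and -0.03 in FeO, and the 4 of them above background in FeD (all but Ccnb2) between -0.14 and -0.01. Of the spindle and checkpoint genes, Mad2l1, a checkpoint protein, was lower on both arrays in FeO (-0.31 and -0.21) and in FeD (-0.16 and -0.05). Bub1, Bub1b, Birc5 and Kif20a lay between -0.16 and -0.02 in FeO on the mean of both arrays. Top2a, the topoisomerase used as a proliferation marker, gave 47.1 against 65.0 units and 67.7 against 81.2 units in FeO (-0.20 and -0.17), and -0.15 and 0.003 in FeD. Aurkb, Tpx2, Kif11 and Cenpf were not well above background, so mitosis was followed through its brighter genes alone.

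Genes outside the 40 were read from wider lists. Of 46 other replication factors, 26 were above background, and in FeO 20 were lower on both arrays, none was higher on both and 3 were called lower, with a median of -0.34, beside 26.1% of all genes lower on both arrays. Some of the 20, Timeless, Gins1 and Gins4 among them, passed through the FeA pool alone, so that a lower value was favoured by the filter. The called genes were Chaf1b, a chaperone that loads histones behind the fork (-0.72 and -1.18), Fen1, the flap nuclease of Okazaki fragments (-0.67 and -0.94), and Rfc3, a further clamp loader subunit (-0.81 and -0.65). In FeD the same list had 12 lower, none higher and none called, with a median of -0.15, beside 22.5% of all genes lower. Of 47 other mitotic genes, 28 were above background in FeO and none was called (median -0.12). On both FeO arrays 15 were lower and 2 higher, beside 26.1% and 26.8% of all genes. In FeD 8 of 27 were lower and 5 higher (median -0.07), near the 22.5% and 25.0% of all genes. Of 18 other G1/S regulators, 12 were above background in FeO, 6 were lower on both arrays and 3 higher, and the called gene was Cks1b, a subunit of cyclin-dependent kinase complexes, lower in FeO (-0.35 and -1.04). Of 7 other inhibitors of these kinases, 6 were above background in FeO, 3 lower and 3 higher on both arrays, and the called gene was Cdkn2c, p18, higher (0.36 and 0.91).

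Growth arrest and iron enzymes showed no common shift. Of 20 p53 targets and growth arrest genes, 18 were above background, with medians of 0.02 in FeD and -0.03 in FeO. Ccng1, cyclin G1, was called lower in both, at -1.22 and -1.53 in FeD and -0.77 and -1.27 in FeO. Phlda3, an inhibitor of Akt (0.54 and 0.83), and the stress genes Gadd45g and Gadd45b (means of 0.68 and 0.62) were called higher in FeO, so the list held genes on both sides. Of 12 DNA enzymes with an iron-sulfur cluster, 6 were above background and none was called. They spanned -0.20 (Pold1, a polymerase) to 0.21 (Rtel1, a helicase) in FeD and -0.56 (Prim2, primase) to 0.18 in FeO. The 4 genes that supply ribonucleotide reductase with electrons spanned -0.13 to -0.03 in FeD and -0.17 to 0.03 in FeO.

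**Figure D4:**
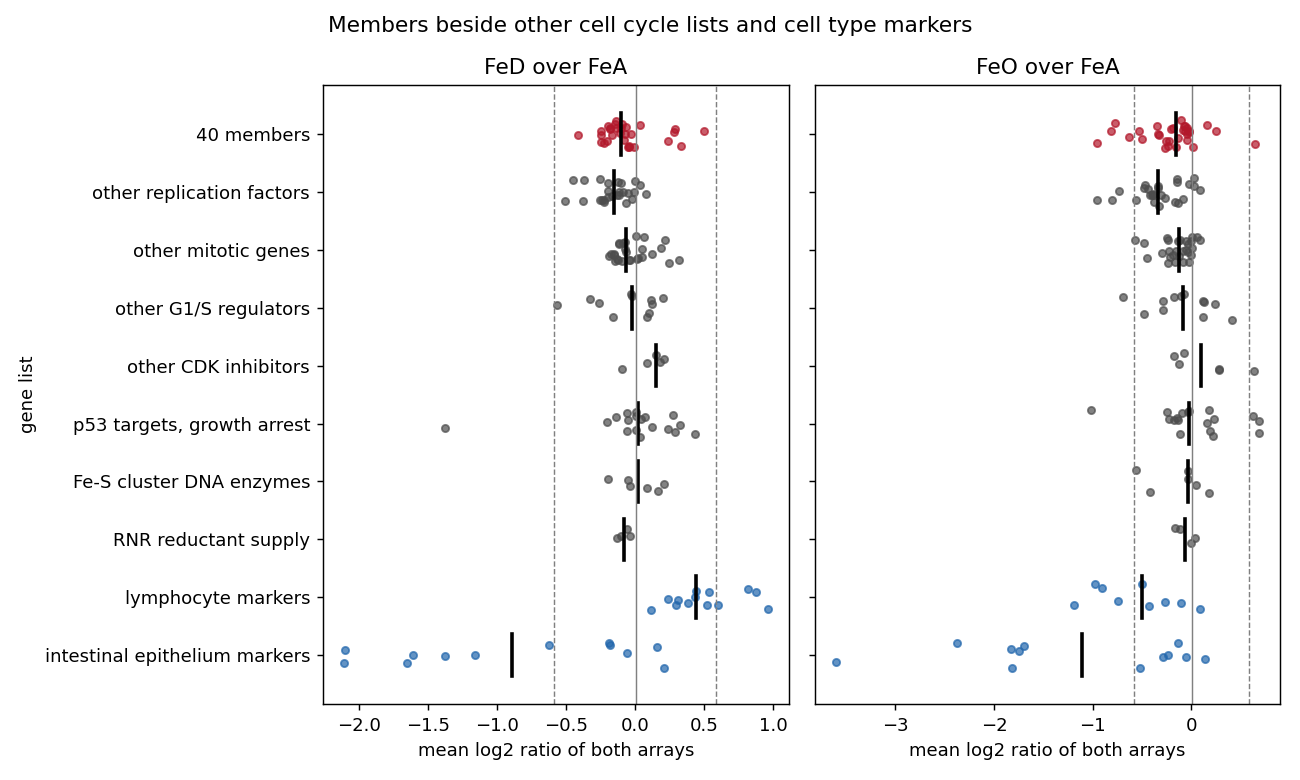
Mean log2 ratio of diet over FeA for each gene above background, by list, in FeD (left) and FeO (right), with the list median as a black bar, the median of all genes as a grey line and 1.5-fold as dashed lines (the panels have different axes). In FeO the members (red, median -0.16) and the other replication factors (median -0.34) lie mostly left of the grey line, and the lymphocyte markers (blue) have a median of 0.44 in FeD and -0.50 in FeO.

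Markers of some other cells moved in the same comparisons. The plot of lists shows the lymphocyte and intestinal ones. Of 13 lymphocyte markers above background in FeD, 12 were higher on both arrays and 4 were called higher, with summed signals of 8743 and 8230 units in FeD against 5217 and 4642 in FeA. In FeO, 9 passed, 8 were lower on both arrays and 4 were called lower, among them Cd3g and Ptprc. The FeO sums were 2548 and 3541 against 4863 and 6053 units, and Cd2, Ms4a1, Cd22 and Cd37 were not well above background. In FeD these genes passed through the FeD pool alone, so that a higher value was favoured by the filter. Some of the 9 in FeO passed through the FeA pool alone, which favoured a lower value, as did some intestinal markers below. Mcm3 thus had the same sign as the median lymphocyte marker on all 4 arrays, which share the FeA pool. Mcm4, Mcm6 and the brighter Mcm2 probe had the opposite sign on both FeD arrays. The dimmer Mcm2 probe gave -0.18 and 0.08 there. Of 12 intestinal epithelium markers, 7 were called lower in FeD and 6 in FeO, with medians of -0.89 and -1.11 and sums of 6718 and 7665 against 11820 and 12200 units in FeD and 5255 and 7658 against 11850 and 14870 in FeO. Of 8 adipocyte markers 5 were called higher in FeO, with sums of 73810 and 86720 against 20030 and 23950 units, as were 4 of 5 mast cell markers, with 1940 and 2700 against 626 and 959. The acinar list had an FeO median of -0.30 over 9 genes, with sums of 3900000 and 5345000 against 4280000 and 6804000 units. Of 8 islet markers, 7 were lower on both arrays in FeO, 4 were called lower and 1 higher (median -0.54), with sums of 269900 and 352400 against 540500 and 566200 units. In FeD, 4 islet markers were lower on both arrays and none was called (median -0.25). All 5 erythroid markers were higher on both arrays in FeD and 2 were called (median 0.49). Of 8 macrophage markers, 7 were higher on both arrays in FeD and 5 in FeO, and 3 were called higher in each (medians 0.32 and 0.37). In FeO, 6 of 7 fibroblast and stellate cell markers and 4 of 5 endothelial markers were higher on both arrays, 2 and 1 of them called (medians 0.34 and 0.39). Duct cell markers had medians of 0.03 in FeD and -0.0023 in FeO, where 2 of 6 were called lower. Smooth muscle markers had medians of -0.42 in FeD, with 1 of 5 called lower, and 0.06 in FeO, with 0 called. The part of all these cells in the members' ratios was not tested.

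The FeO median stayed below 0 under each alternative run, but its size and the number of called members varied. With the scanner software's own processed signals, 9 of 31 members were called lower (the former 4 with Mcm2, Mcm7, Rrm2, Aurka and Ccna2) and the median was -0.40, beside 4.92% of all genes called lower. With no background subtraction 3 were called lower (Ccnd2, Mcm3 and Mcm4), beside 1.39% of all genes. With array 2 alone Mcm3, Mcm4 and Rrm2 were past 1.5-fold, and with array 1 alone Ccnd2, Mcm2, Mcm3, Mcm4 and Mcm6 were, so Ccnd2 and Mcm6 rest on array 1. Of all genes, 3.2% were past 1.5-fold lower on array 2 alone and 2.23% on array 1 alone.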

How the data were processed

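Total RNA from the pancreases of 6 rats per diet was pooled, and FeD and FeO pools were each hybridised with the FeA pool on 2 dye-swapped arrays. Agilent Feature Extraction 10.1.1.1, run by the authors, gave the deposited intensities: median spot and background signals as scanned, and processed signals after background correction and dye normalization. Other deposited columns used are flags per spot. The authors' tables of fold changes, p-values and q-values were used for probe names and not for values.

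From these, limma 3.58.1 in R 4.3.3 gave the ratios (normexp with an offset of 50, loess within each array, controls and outlier spots left out, spots of a probe averaged, the swapped array's sign turned). A probe entered where over 50% of its spots were well above background on both arrays in at least 1 diet, and a gene was read from its brightest such probe. Of 30367 gene probes, 18560 kept the symbol of the authors' table, 4389 were updated and 7418 had none. Each diet is 1 pool, so no test of diets was made. The methods' t-test was run as an alternative. The number of arrays limits the precision. Fold sizes are on the scale of the offset and understate changes of dim probes. The steps were tested on simulated data made from the signals of FeD array 1, with noise chosen for the test. Of probes changed by a log2 size of 1, 65.49% were called in the right direction, and the measured ratio was a median of 0.70 of the true one. At a log2 size of 2, 100% were called, and of 17480 unchanged probes 1 was called. A change of 2-fold can thus go uncalled.

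The 40 members, the other lists and the marker lists were chosen with earlier results of these data known, and support nothing independently. One marker gene counted in its list is not reported here by name. Members named with both array values are those past 1.5-fold, the ribonucleotide reductase genes, Top2a, Cdk1, Pcna and Cdkn1a, and others by role. Alternatives were other background corrections, processed signals, median centring, other filters and fold sizes, the mean of probes and each array left out. Promoters were searched in Python 3.11.15 with pandas 2.3.3.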

Additional observations from a re-analysis of the deposited data

Results flagged for a closer look

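Mcm3, an MCM helicase subunit, had a mean log2 ratio of 0.50 in FeD and -0.96 in FeO, opposite in sign on all 4 arrays. Both values are relative to the same FeA pool, and the difference between the diets was not tested. The medians of the lymphocyte markers had the same signs (0.44 in FeD and -0.50 in FeO). In FeD, Mcm2, Mcm4 and Mcm6 were instead lower on both arrays (means of -0.22, -0.41 and -0.20), though a dimmer Mcm2 probe gave -0.18 and 0.08. Of the 30 members in FeD, 9 were lower on both arrays and 5 higher. The part of lymphocytes was not tested.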

How the results depend on the processing

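Of the members' counts and medians under the alternatives, 66 stayed close to those reported and 22 moved, and of the values of single genes 197 stayed and 34 moved, with no called gene changing direction. A single gene moved where its value shifted by at least the standard deviation of its 2 arrays. Leaving 1 array out cannot reach that shift or turn a called gene, and the filters left these values unchanged. The 197 is thus no measure of stability. In FeD, Mcm7 went from -0.245 to 0.0117 without array 2 and still counted as stayed. The FeD median of -0.10 became -0.18 with an offset of 0, -0.27 with processed signals and -0.062 with no filter, and the FeO median of -0.16 became -0.33, -0.40 and -0.11. With each array left out, the medians ranged from -0.14 to -0.08 in FeD and from -0.21 to -0.14 in FeO, and the members lower in FeD numbered 16 to 18 of 30, near the 48.5% to 49.1% of all genes. The counts of members lower on both arrays were added after the data were seen. In FeD that count was 9 as reported, 14 with no background subtraction and 18 with processed signals, beside 22.5%, 22.3% and 26.1% of all genes. Processed signals called 1 member higher in FeD (Mcm3) and 9 lower in FeO, beside 3.83% and 4.92% of all genes. A smaller size criterion, a mean log2 ratio of 0.32, called 2 higher and 1 lower in FeD, beside 5.22% and 2.87% of all genes. In FeO that criterion called 1 higher and 9 lower, beside 7.66% and 5.87%. At 2-fold 0 of 31 were higher and 0 lower in FeO, near the 0.801% and 0.561% of all genes. The methods' t-test with a log2 ratio of 2 called 0 higher and 0 lower in FeO, before and after Benjamini-Hochberg adjustment. Without the ratio, its p was under 0.05 for 2 members in FeD (Cdk1 and Mcm3) and 5 in FeO (Ccnd2, Cdk1, Mcm3, Mcm4 and Mcm7), 0 of them after adjustment, beside 6.89% and 8.55% of all genes before it. That test compares pools by technical error. Median centring gave Cdkn1a 0.15 in FeO in place of -0.06. No paired analysis was possible because each diet is 1 pool. Signal limits 8 members with probes, which were not well above background in either comparison.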
